A study of Mus musculus with 23 samples.

Results

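The genes described here are 49 mouse genes whose RNA is known to be induced by interferons, read in gastrocnemius muscle on 23 Affymetrix arrays. They were taken as every probe set listed for 1 of the 49 symbols. Of the 12393 genes that had a probe set of their own on the array, 45 were members, and 44 of these were among the 11164 genes bright enough to be tested (2 or more arrays with a rescaled MAS5 signal of 100 or above). Mx2 had its own probe set but stayed below that limit, with signals of 25.4 to 88.8 over all arrays. Isg15 and Psme2 were read only by probe sets listed for several genes, so no value is given for them, and Ifi44 and Xaf1 had no probe set listed.

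Muscle came from emerin KO (knockout) mice, lamin A/C KO mice and control mice, on day 3 and day 4 after an injection used to set off degeneration and regeneration, and on day 0. Emerin KO had 3 arrays on day 3, 3 on day 4 and 2 on day 0, lamin A/C KO had 3 on each of these days, and control had 2 on each. Day 0 muscle was labelled as not injected in emerin KO and control, whereas the lamin A/C KO arrays of day 0 were labelled as taken 0 days after injection. The titles tie the controls to the lamin A line. The loss of emerin and any difference between mouse lines therefore cannot be told apart in a comparison of emerin KO with control or with lamin A/C KO. The injected agent, the age of the mice and whether the arrays of a group came from separate mice are not given in the sources used here. The p-values therefore rest on the spread among these arrays, which may be technical.

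Interferons are secreted proteins that cells release when they sense viral or misplaced nucleic acid. Type I interferon acts through the receptor chains Ifnar1 and Ifnar2 and the kinases Jak1 and Tyk2, and the signal reaches the interferon-stimulated response element in promoters through factors that include Stat2 and Irf9. Type II interferon (interferon gamma) has its own receptor and acts through the gamma-activated site. Macrophages, which fill muscle in the days after injury, are among the cells that respond to these signals. Emerin and lamin A/C are proteins of the inner nuclear membrane and the lamina beneath it.

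The response element can be read directly in the promoters of many of these genes. RefSeq promoters (GRCm38.p6, 250 bases before to 50 after the start) were found for 38 of the 44 tested genes. Its core, GAAA followed by any 2 bases and GAAA, searched on both strands and counted where copies overlap, was present in 19 of the 38, against 1079 of 27025 genes of the promoter table (3.99%) and 347 of 8936 tested genes (3.88%). The core of the gamma-activated site, TTCNNNGAA, which reads the same on both strands, was present in 11 of the 38 (28.9%), against 2582 of the 27025 genes (9.55%). A match describes letters and shows no binding. The 6 promoters below belong to genes that were higher in emerin KO than in control muscle on day 3, and are shown because the element named above can be read in each of them. Each is the 150 bases just before the start, 5′ to 3′ on the strand of the gene, with cores on either strand in capitals.
Slfn8 (chr11:83020811-83020960, minus strand): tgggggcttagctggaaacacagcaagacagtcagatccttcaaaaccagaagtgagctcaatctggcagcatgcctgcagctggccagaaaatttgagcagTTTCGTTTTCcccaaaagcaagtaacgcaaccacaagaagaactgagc
Rsad2 (chr12:26456453-26456602, minus strand): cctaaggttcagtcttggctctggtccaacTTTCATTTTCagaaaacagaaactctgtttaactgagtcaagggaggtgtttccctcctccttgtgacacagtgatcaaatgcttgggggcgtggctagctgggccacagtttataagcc
Bst2 (chr8:71537473-71537622, minus strand): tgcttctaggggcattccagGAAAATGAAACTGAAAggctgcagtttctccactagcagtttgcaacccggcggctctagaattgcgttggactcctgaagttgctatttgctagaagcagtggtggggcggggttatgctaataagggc
Ifit1 (chr19:34640739-34640888, plus strand): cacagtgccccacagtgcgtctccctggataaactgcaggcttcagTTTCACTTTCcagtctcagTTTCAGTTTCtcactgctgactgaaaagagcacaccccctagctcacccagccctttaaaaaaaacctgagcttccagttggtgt
Ifit3 (chr19:34583379-34583528, plus strand): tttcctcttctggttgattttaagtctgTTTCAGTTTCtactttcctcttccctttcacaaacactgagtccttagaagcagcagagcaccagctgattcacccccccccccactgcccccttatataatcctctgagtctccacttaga
Oas1a (chr5:120907526-120907675, minus strand): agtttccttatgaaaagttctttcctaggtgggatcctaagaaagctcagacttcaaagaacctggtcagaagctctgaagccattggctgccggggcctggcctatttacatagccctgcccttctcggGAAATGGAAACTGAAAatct
Bst2 and Oas1a hold 2 overlapping cores, Ifit1 holds 2 separate cores, and the others hold 1 in the stretch shown. The core nearest to the start began 14 bases before it in Oas1a and 124 bases before it in Bst2. On day 3 the core was present in 9 of 19 members that were higher than control and had a promoter in the table (47.4%), against 10 of 19 that did not pass the test (52.6%). The gamma-activated site was present in 3 of the 19 higher members (15.8%), against 8 of the 19 that did not pass (42.1%), a difference that was not tested.

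The genotype labels were borne out by the targeted genes. Emd, which encodes emerin, had signals of 153 to 465 on the 8 emerin KO arrays, against 587 to 830.3 on the 6 control arrays. The brightest Lmna probe set had 53.0 to 109 on the 9 lamin A/C KO arrays, against 857 to 4119 on the control arrays, while its 3 dimmer probe sets did not separate the genotypes in this way. RNA quality was uneven over the groups: the ratio of the 3′ to the 5′ Gapdh control probe set was 4.79, 6.09 and 3.62 in emerin KO on day 3 and 2.89, 1.40 and 5.30 on day 4, against 0.822 to 1.64 on the other 17 arrays. After injury all 14 macrophage markers were at or above 100 on every array, and their summed signal was 67139 to 77000 in emerin KO, 65159 to 77472 in lamin A/C KO and 58928 to 64324 in control, against 7417 to 13338 on day 0 over the 3 genotypes. The summed signal of 8 muscle fiber markers was 45956 to 98462 after injury, against 180570 to 240241 on day 0, which bears out muscle as the tissue. In whole muscle, a change in the number of cells of a type and a change in RNA per cell cannot be told apart.

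**Figure D1:**
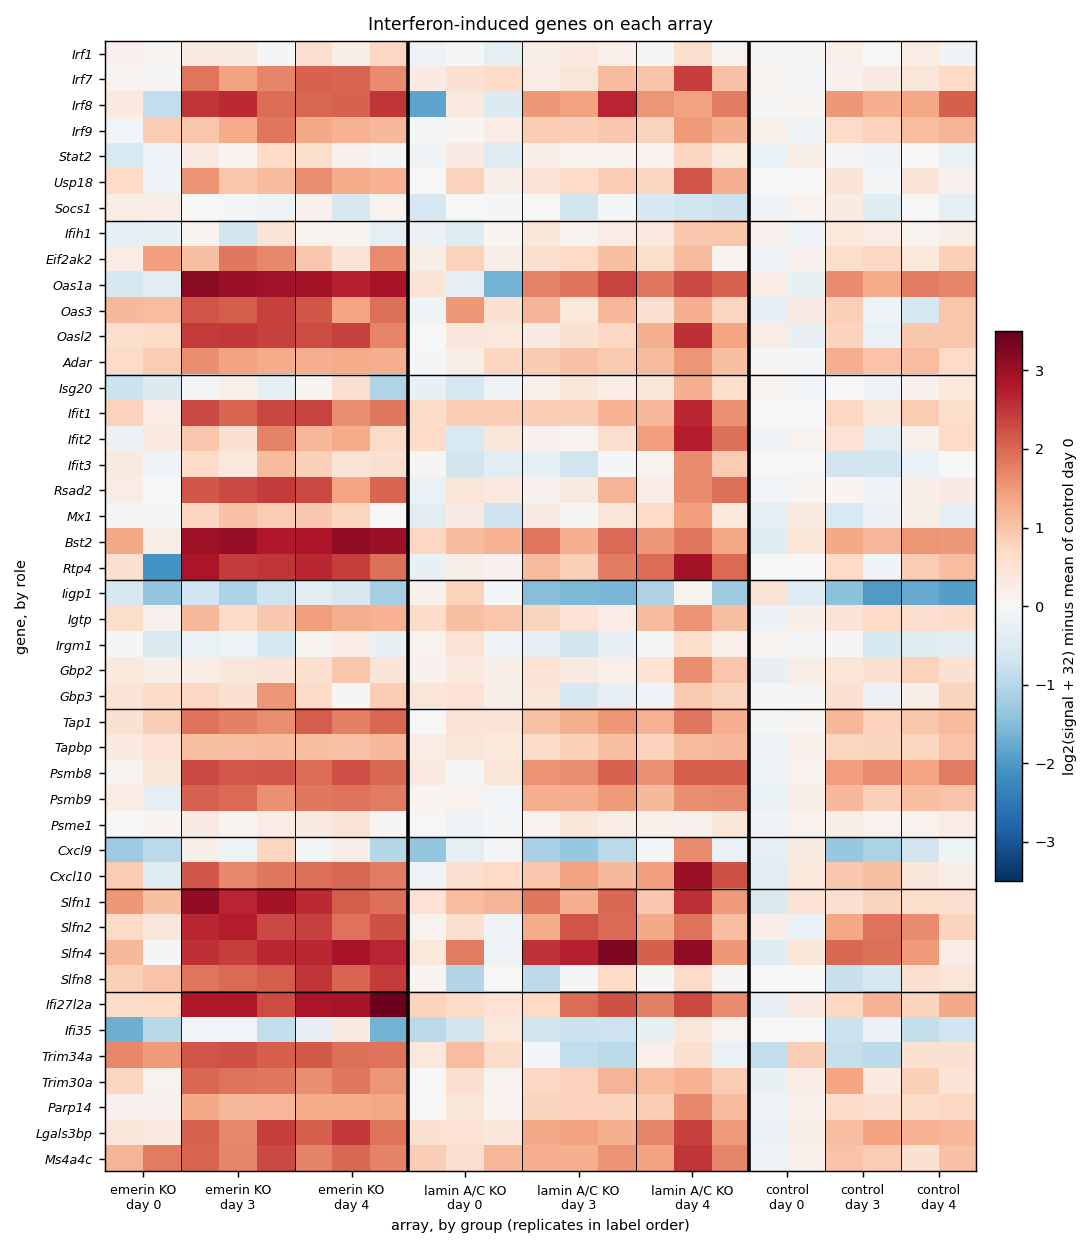
Heat map of the 44 tested interferon-induced genes (rows, grouped by role, with lines between groups) on the 23 arrays (columns, grouped by genotype and day). Colour gives log2(signal + 32) minus the mean of the 2 control arrays of day 0. The 6 emerin KO arrays of day 3 and day 4 form the darkest red block, and lamin A/C KO day 4 replicate 2 stands out within its group.

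After injury the median of these genes lay above its control level of day 0 on every array, and it was highest on an emerin KO array of day 3. Set against the mean of control on day 0, the median member stood 1.74, 1.55 and 1.69 higher (log2) on the 3 emerin KO arrays of day 3. The corresponding values were 0.61, 0.60 and 0.92 for lamin A/C KO and 0.58 and 0.33 in control on that day. On day 4 the median member stood 1.62, 1.33 and 1.59 higher in emerin KO, 0.84, 1.62 and 1.07 in lamin A/C KO and 0.55 and 0.64 in control. The emerin KO arrays therefore did not overlap with control on either day, and 1 of the 3 lamin A/C KO arrays reached the emerin KO range on day 4. On day 0 the values were 0.33 and 0.15 in emerin KO, 0.06 to 0.41 in lamin A/C KO and -0.12 and 0.12 in control.

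**Figure D2:**
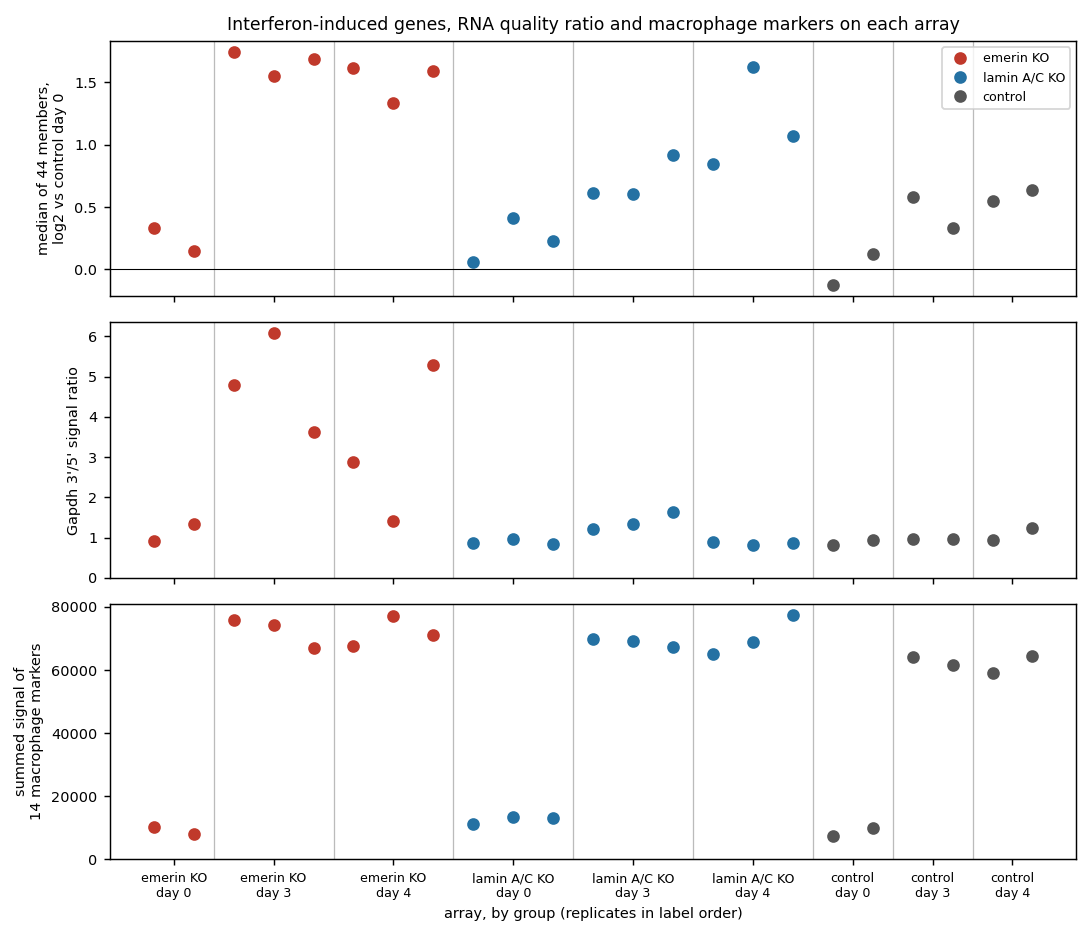
Values on each of the 23 arrays, grouped by genotype and day. The top panel gives the median over the 44 members of the log2 difference from the mean of control on day 0, the middle panel the Gapdh 3′/5′ signal ratio, and the bottom panel the summed signal of the 14 macrophage markers. The emerin KO arrays of day 3 are at 1.55 to 1.74 for the members and have Gapdh ratios of 3.62 to 6.09. Emerin KO day 4 replicate 2 is at 1.33 for the members with a ratio of 1.40. Lamin A/C KO day 4 replicate 2 is at 1.62 with a ratio of 0.822.

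On day 3, 24 of the 44 members were higher in emerin KO than in control muscle and 0 were lower (limma, adjusted p under 0.05, on log2(signal + 32), a scale that understates the change of dim genes). Over all genes tested, 7.38% were higher and 8.92% were lower. The median difference was 0.90 for the members and 0.00 for all genes, and 40 of the 44 members had a positive difference. Counts by role were 2 of 7 transcription factors and regulators, 3 of 6 genes of double-stranded RNA sensing and response, 6 of 8 antiviral effectors, 0 of 5 interferon-inducible GTPases, 3 of 5 antigen processing genes, 1 of 2 chemokines, 3 of 4 Schlafen genes and 6 of 7 other genes. In 6 of the called genes 9 other probe sets were present. Of these, 5 were below 100 on average in both groups, among them the other set of Trim34a, and tell nothing of the calls, and the other 4 had a positive difference.

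Among the regulators, Irf7, the transcription factor that amplifies the type I interferon response, had signals of 1061, 767 and 946 in emerin KO on day 3, against 300.3 and 342 in control. All 3 knockout arrays lay above both control arrays, and the difference was 1.43 ± 0.31 (log2, SE; adjusted p = 0.0033). Usp18, a protease that removes ISG15 and dampens the interferon receptor, had 537, 339.8 and 374 in emerin KO, against 229 and 148 in control, a difference of 1.03 ± 0.33 (adjusted p = 0.039). The lowest knockout array was above the highest control array for this gene as well. The 5 regulators that did not pass were Irf8 (0.97), Irf9 (0.65), Stat2 (0.48), Irf1 (0.10) and Socs1 (-0.02). Irf8 and Stat2 each had another probe set, not tested by itself, with differences of 0.44 and 1.11. That of Stat2 averaged 189 in emerin KO and 69.7 in control. Irf1, a factor that responds to interferon gamma, had 868 to 1134 in emerin KO on day 3 and 907 to 1015 in control, with overlapping arrays.

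The oligoadenylate synthetase family, whose enzymes answer double-stranded RNA by activating an RNA-cutting nuclease, gave the 3 calls of the second role. Oasl2, a member of that family, had 718, 726 and 692 in emerin KO on day 3, against 202 and 85.3 in control, a difference of 2.17 ± 0.33 (adjusted p = 1.5e-04). Oas3 had 652, 620.3 and 749 in emerin KO, against 232 and 101 in control, a difference of 1.91 ± 0.44 (adjusted p = 0.0047). For both genes the control arrays lay apart from each other but well below every knockout array. Oas1a had 2115, 1922 and 1823 in emerin KO, against 728 and 567 in control (1.55 ± 0.36, adjusted p = 0.0047), again without overlap. The receptor Ifih1 (-0.34), the kinase Eif2ak2 (0.86) and the RNA editing enzyme Adar (0.32) did not pass. The other probe set of Eif2ak2, not tested by itself, was level (-0.00196).

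The antiviral effectors gave 6 calls. Rsad2, which encodes viperin, an enzyme that makes a chain-terminating nucleotide, had 2039, 2227 and 2447 in emerin KO on day 3, against 452 and 388 in control, a difference of 2.33 ± 0.37 (adjusted p = 2.2e-04). Rtp4, a chaperone-like interferon-induced protein, had 1561, 1181 and 1224 in emerin KO, against 325 and 169 in control, a difference of 2.33 ± 0.48 (adjusted p = 0.0023). The knockout arrays of both genes were several times brighter than either control array. Bst2, the tether that holds budding virions at the cell surface, had 677, 711 and 592 in emerin KO, against 196 and 169.7 in control (1.69 ± 0.29, adjusted p = 5.4e-04). Ifit1, which binds foreign RNA ends, had 930.2, 751 and 939 in emerin KO, against 284 and 224 in control (1.66 ± 0.30, adjusted p = 6.8e-04). Neither gene overlapped between the groups. The other two calls were Ifit3 (1.39 ± 0.31) and Mx1 (1.27 ± 0.36). Mx1 had 134, 169.9 and 151 in emerin KO, against 36.1 and 53.4 in control, where both arrays were under 100, so its signal was at least 1.52-fold higher, taken from the limit of 100. Ifit2 (1.01) and the nuclease Isg20 (0.03) did not pass.

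**Figure D3:**
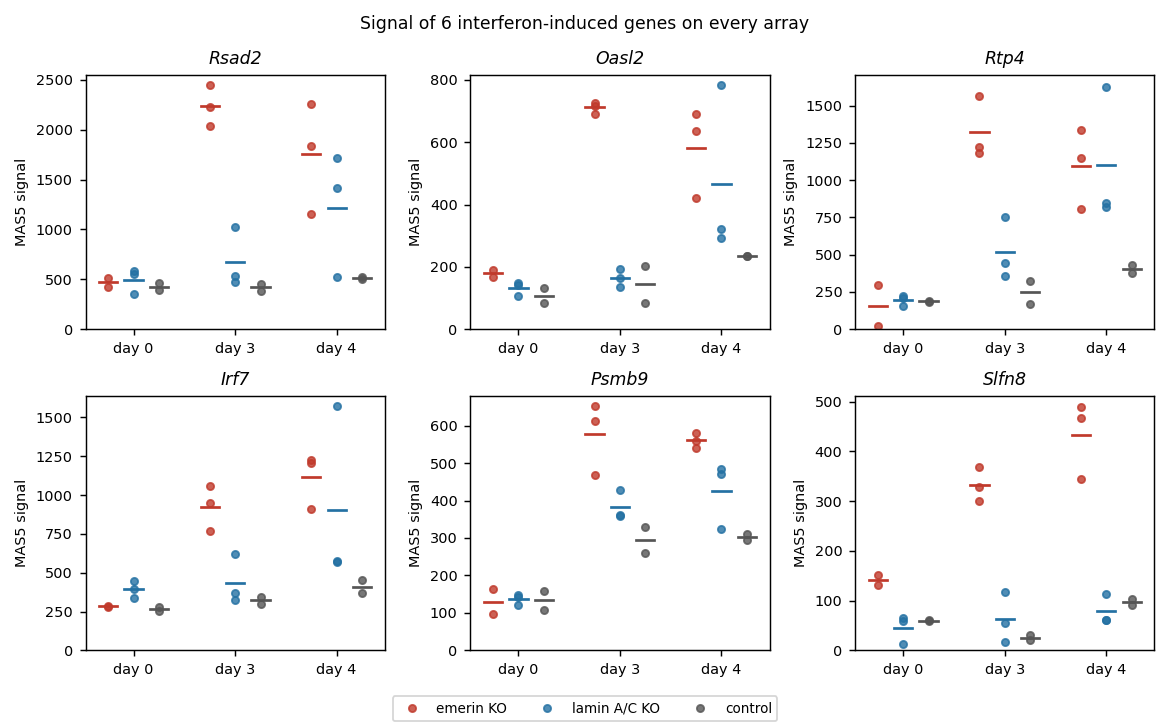
MAS5 signal (linear scale, rescaled to a trimmed mean of 500) of 6 interferon-induced genes on every array, by day, with emerin KO, lamin A/C KO and control side by side. Points are arrays and bars are group means. For Rsad2, Oasl2, Rtp4, Irf7, Psmb9 and Slfn8 the 3 emerin KO arrays of day 3 lie above both control arrays, and for Slfn8 the emerin KO arrays lie above control on each of the 3 days.

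No interferon-inducible GTPase, a family that attacks the vacuoles of intracellular pathogens, passed on day 3. Iigp1 had 856, 628 and 817 in emerin KO, against 493 and 326 in control, a difference of 0.87 ± 0.35 (adjusted p = 0.10). Gbp3 differed by 0.77 ± 0.36 (adjusted p = 0.16), and the others were Igtp (0.33), Irgm1 (-0.08) and Gbp2 (-0.11). Gbp2 had another probe set of opposite sign, not tested by itself, and the mean of its 2 sets differed by 0.36. The arrays of Irgm1, a regulator of the other immunity-related GTPases, overlapped between the groups.

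Antigen processing genes were higher by smaller amounts. Psmb9, a catalytic subunit of the immunoproteasome, had 652, 612 and 468 in emerin KO on day 3, against 329 and 260.0 in control, a difference of 0.90 ± 0.21 (adjusted p = 0.0062). Tap1, a chain of the peptide transporter that loads MHC class I, had 670.4, 614 and 557 in emerin KO, against 389 and 299 in control (0.79 ± 0.21, adjusted p = 0.014). Psmb8, another immunoproteasome subunit, had 1013, 895 and 936 in emerin KO, against 552 and 635 in control (0.65 ± 0.20, adjusted p = 0.032). In all 3 genes every knockout array was above both controls. The loading factor Tapbp (0.30) and the proteasome activator Psme1 (0.04) did not pass, and Psme1 was level at 1582 to 1799 in emerin KO and 1604 to 1738 in control. Tapbp had another probe set of opposite sign, not tested by itself, and the mean of its 2 sets differed by -0.22.

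Of the interferon-induced chemokines, which draw T cells through the receptor Cxcr3, Cxcl9 had 134, 94.2 and 211 in emerin KO on day 3, against 25.3 and 34.4 in control. The difference was 1.48 ± 0.49 (adjusted p = 0.044). Its control signals were below 100, so the ratio of signals is given only as at least 1.46-fold. Cxcl10 had 439.7, 303 and 344 in emerin KO, against 170.3 and 183 in control, and did not pass on that day (0.90).

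The Schlafen genes, interferon-induced genes expressed in myeloid cells and lymphocytes, lie next to each other on chromosome 11 and 3 of the 4 were called. Slfn8 had 301, 328 and 368 in emerin KO on day 3, against 21.0 and 30.2 in control, at least 3.32-fold higher (2.66 ± 0.37, adjusted p = 8.2e-05). Slfn1 had 582, 419 and 505 in emerin KO, against 73.4 and 91.4 in control, at least 5.02-fold higher (2.22 ± 0.38, adjusted p = 5.1e-04). Both genes were below 100 on each control array and many times brighter on each knockout array. Slfn2 had 1491, 1625 and 1176 in emerin KO, against 589 and 889 in control, and differed by 0.94 ± 0.30 (adjusted p = 0.037). Slfn4 did not pass, with 371, 340.1 and 398 in emerin KO, against 245 and 230.4 in control (0.57).

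Among the other members, Trim34a, a ubiquitin ligase of the tripartite motif family, was below the limit of 100 on both control arrays. Its signals were 400.3, 423 and 374 in emerin KO on day 3, against 22.4 and 18.6 in control, at least 3.99-fold higher (3.04 ± 0.37, adjusted p = 2.2e-05). Its relative Trim30a, which lies beside it on chromosome 7, had 1724, 1591 and 1546 in emerin KO, against 1104 and 521 in control (1.06 ± 0.26, adjusted p = 0.0069). Neither overlapped between the groups, although the control arrays of Trim30a differed by more from each other than the knockout arrays did. Ifi27l2a, which encodes a small interferon-induced membrane protein, had 1951, 1941 and 1347 in emerin KO, against 443 and 628 in control (1.65 ± 0.33, adjusted p = 0.0019). Ms4a4c, a membrane protein gene of the MS4A family read by a probe set that may share signal with relatives, had 668, 531 and 817 in emerin KO, against 313 and 288 in control (1.06 ± 0.27, adjusted p = 0.0099). The remaining calls were Lgals3bp (0.80 ± 0.23) and Parp14 (0.63 ± 0.19), and Ifi35 did not pass (0.12).

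All 3 emerin KO arrays of day 3 had a high Gapdh ratio and both control arrays a low one, so on that day genotype and ratio cannot be told apart. When the ratio was added to the fit 0 of the 44 members passed, while the median difference was 1.13, against 0.90 without it, and over all genes 2 were higher and 7 lower, against 824 and 996. Leaving out control day 3 replicate 2 left 11 calls, and leaving out any other array of the pair of groups left 16 to 22. Whichever array was left out, 10 of the 24 calls passed. Of the 14 macrophage markers, 3 were higher and 1 was lower in emerin KO than in control on day 3, against 7.38% and 8.92% of all genes. The median difference of these markers was 0.20. The summed NK cell markers were 760.3, 659.7 and 1461 in emerin KO on day 3, against 671 and 724 in control, with 0 of 6 tested markers past the threshold. Muscle fiber markers summed to 45956 to 58535 in emerin KO, against 60321 and 92095 in control, and 2 of 8 were lower, against 8.92% of all genes. The part of these cell types in the result was not tested.

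**Figure D4:**
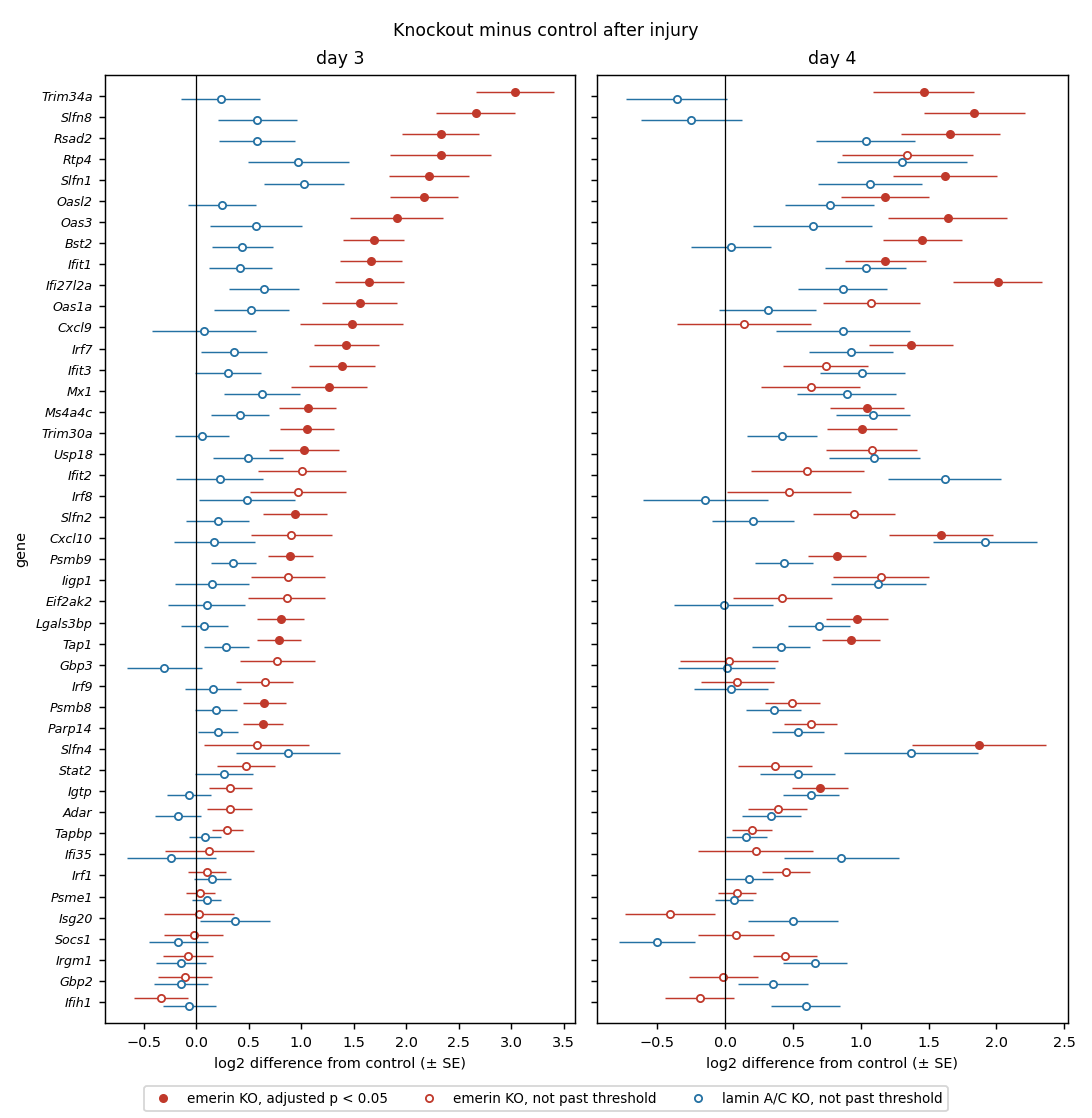
Log2 difference from control (± SE) of the 44 tested genes on day 3 (left) and day 4 (right), for emerin KO (red) and lamin A/C KO (blue). Filled points passed an adjusted p of 0.05. On day 3 the points of 40 genes are above 0 for emerin KO and 24 are filled, and no lamin A/C KO point is filled on either day.

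Emerin KO muscle was also set against lamin A/C KO muscle on day 3, a comparison of 2 groups that are not controls. The limit of mouse line applies here too, and the 2 groups differ in both targeted genes. Their Gapdh ratios were also apart, at 4.79, 6.09 and 3.62 in emerin KO and 1.21, 1.33 and 1.64 in lamin A/C KO. Here 17 of 44 members were higher in emerin KO and 0 were lower, against 3.96% and 5.99% of all genes, with a median of 0.69 for the members and 0.06 for all genes. The 3 emerin KO arrays are those already set against control. Trim34a had signals of 400.3, 423 and 374 in emerin KO, against 59.2, 20.1 and 17.2 in lamin A/C KO, at least 3.99-fold higher (2.81 ± 0.33, adjusted p = 1.9e-05). Slfn8 had 301, 328 and 368 in emerin KO, against 16.7, 55.0 and 118 in lamin A/C KO (2.08 ± 0.33, adjusted p = 5.5e-04). For both genes every lamin A/C KO array was below every emerin KO array. Oasl2 had 136, 165 and 194 in lamin A/C KO, below each of the emerin KO values given above (1.92 ± 0.29, adjusted p = 3.1e-04). Rsad2 had 478, 535 and 1021 in lamin A/C KO (1.75 ± 0.33, adjusted p = 0.0018), and Bst2 had 296, 180.1 and 321 (1.25 ± 0.26, adjusted p = 0.0045). The lowest emerin KO array was above the highest lamin A/C KO array for all 3 genes. Ifit1 differed by 1.24 ± 0.27, Ifit3 by 1.09 ± 0.28, Irf7 by 1.07 ± 0.28 and Gbp3 by 1.08 ± 0.32. The antigen processing genes did not pass here, with Psmb9 at 0.55 ± 0.19 (adjusted p = 0.077) and Tap1 at 0.50 ± 0.19 (adjusted p = 0.10). When the Gapdh ratio was added to the fit 2 members passed, and 8 to 14 passed when 1 array was left out. The count was 8 without emerin KO replicate 1, 8 without lamin A/C KO replicate 1, 8 without lamin A/C KO replicate 2, 11 without emerin KO replicate 2 and 10 without emerin KO replicate 3.

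On day 4, 18 of 44 members were higher in emerin KO than in control and 0 were lower, against 2.58% and 3.29% of all genes, with a median of 0.78 for the members and 0.04 for all genes, and 41 of 44 differences were positive. Of these, 15 were also called on day 3, which is 83.3% of the day 4 calls and 62.5% of the day 3 calls. Day 3 and day 4 use different arrays on both sides, but both comparisons come from the same fit and share its variance estimate for each gene. The limit of mouse line and the higher Gapdh ratios of emerin KO than of control also apply on both days. The calls of day 4 are therefore not an independent replication. The same overlap over all genes is not given here, so it is not shown to be particular to the members. The 3 genes called on day 4 and not on day 3 were Cxcl10, Igtp and Slfn4.

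Ifi27l2a led on day 4, with 2032, 2055 and 3066 in emerin KO, against 455 and 681 in control (2.01 ± 0.33, adjusted p = 0.0015). Slfn4 had 398, 476 and 408 in emerin KO, against 160.0 and 49.8 in control (1.87 ± 0.50, adjusted p = 0.030), and Slfn8 had 488, 345 and 467, against 103 and 91.1 (1.84 ± 0.37, adjusted p = 0.0059). The control signals of these Schlafen genes reached no higher than 160.0, less than the lowest knockout array. Slfn1 had 409, 281 and 240.3 in emerin KO, against 78.2 and 75.5 in control, at least 3.1-fold higher (1.62 ± 0.38, adjusted p = 0.017). Rsad2 had 2259, 1157 and 1838 in emerin KO, against 504 and 523 in control (1.66 ± 0.37, adjusted p = 0.011). The knockout arrays of Rsad2 varied more than on day 3 and stayed above both controls.

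Cxcl10 had 363, 386 and 327 in emerin KO on day 4, against 105 and 90.6 in control (1.59 ± 0.38, adjusted p = 0.019). Bst2 had 612, 746 and 692 in emerin KO, against 231 and 226 in control (1.45 ± 0.29, adjusted p = 0.0056), and Irf7 had 1227, 1207 and 908, against 367 and 451 (1.37 ± 0.31, adjusted p = 0.014). These genes kept the day 3 order of the groups with no overlap. Ifit1 had 951, 563 and 656 in emerin KO, against 325 and 265 in control (1.18 ± 0.30, adjusted p = 0.024). Oas3 had 641, 354 and 539 in emerin KO, against 66.6 and 260.3 in control (1.64 ± 0.44, adjusted p = 0.031), and Oasl2 had 637, 692 and 419.9, against 234 and 234 (1.18 ± 0.33, adjusted p = 0.036). The lowest knockout array of each was above both controls.

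Tap1 had 788, 615 and 734 in emerin KO on day 4, against 336 and 379.6 in control (0.93 ± 0.21, adjusted p = 0.015), and Psmb9 had 559, 581 and 541, against 311 and 293 (0.83 ± 0.21, adjusted p = 0.028). Igtp was the only GTPase called, with 997, 872 and 843 in emerin KO, against 533 and 554 in control (0.70 ± 0.21, adjusted p = 0.0497). Trim34a had 389, 326 and 319.6 in emerin KO, against 105 and 104 in control (1.46 ± 0.37, adjusted p = 0.025). On day 3 its control signals were 22.4 and 18.6. Lgals3bp (0.97 ± 0.23), Ms4a4c (1.04 ± 0.27) and Trim30a (1.01 ± 0.26) were the other calls. Oas1a (1.08), Rtp4 (1.34), Usp18 (1.08) and Slfn2 (0.95) had differences of that size without passing.

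The day 4 calls rested on few arrays. Leaving out an emerin KO array gave 4 calls for replicate 1 and 8 for replicate 3, while the count did not fall without replicate 2. Leaving out a control array gave 0 calls for replicate 1 and 5 for replicate 2. When the Gapdh ratio was added to the fit 1 member passed, Lgals3bp, with a median difference of 0.88. Emerin KO day 4 replicate 2 had the lowest Gapdh ratio of its group, 1.40, still above the 0.932 and 1.23 of the control arrays of day 4. It was above both control arrays for 38 of the 44 members, against 35.3% of all genes tested. This array also entered the day 4 calls. With that array alone standing for emerin KO on day 4, assumed to vary like the other groups, 0 members passed and the median difference was 0.84. Over all genes 4 were then higher and 13 lower, against 288 and 367. Of the 14 macrophage markers, 3 were higher and 0 lower in emerin KO than in control on day 4, against 2.58% and 3.29% of all genes. The median difference of these markers was 0.22. The summed signal of the NK cell markers was 1047, 1042 and 1009 in emerin KO on day 4, against 557 and 628 in control, and 0 of the 6 tested passed. That of the muscle fiber markers was 70712 to 78225 in emerin KO, against 87842 and 98462 in control. Of the 8, 0 were higher and 1 was lower, against 2.58% and 3.29% of all genes. The part of these cell types in the result was not tested.

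In lamin A/C KO muscle 0 members passed against control on day 3 and 0 on day 4, either higher or lower, by limma, the only tool run. Of all genes 0% were higher on either day, and 0.0269% were lower on day 3 and 0.0448% on day 4. At an unadjusted p under 0.05 there were 1 of 44 members and 809 of 11164 genes on day 3, and 20 of 44 members and 540 of 11164 genes on day 4. The median difference was 0.23 for the members and -0.04 for all genes on day 3, and 0.56 and -0.03 on day 4. The member nearest to the threshold on day 3 was Slfn1, with lamin A/C KO signals of 224, 137 and 259, against 73.4 and 91.4 in control (1.03 ± 0.38, adjusted p = 0.54). Cxcl10 was nearest on day 4, with lamin A/C KO signals of 249, 818 and 455, against 105 and 90.6 in control (1.91 ± 0.38, adjusted p = 0.087). Ifit2 had lamin A/C KO signals of 237, 618 and 339 on day 4, against 77.0 and 126 in control (1.62 ± 0.42, adjusted p = 0.48), and Ms4a4c had 423, 943 and 532, against 218 and 318 (1.09 ± 0.27, adjusted p = 0.45). In these 3 genes of day 4 replicate 2 was the highest of the 3 knockout arrays.

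That array stood apart for the interferon-induced genes as a whole. Lamin A/C KO day 4 replicate 2 was the highest of its group for 37 of the 44 members, against 40.5% of all genes. Oasl2, for example, had 292, 782 and 322 on the lamin A/C KO arrays of day 4, and Irf7 had 566, 1574 and 575. Its Gapdh ratio was 0.822 and its macrophage markers summed to 68998, between those of the other two arrays of its group. Without it the median difference of the members from control on day 4 was 0.35, against 0.56 with it.

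Emerin KO and lamin A/C KO differed in both directions on day 4. Among the 44 members 4 were higher and 2 were lower in emerin KO, against 8.4% and 8.02% of all genes, so the share of calls was near the background, and the medians were 0.11 for the members and 0.09 for all genes. Slfn8 had 488, 345 and 467 in emerin KO, against 61.8, 113 and 61.4 in lamin A/C KO (2.09 ± 0.33, adjusted p = 4.0e-04), and Trim34a had 389, 326 and 319.6, against 74.4, 107 and 49.3 (1.82 ± 0.33, adjusted p = 0.0011). Bst2 had 224, 295 and 198 in lamin A/C KO (1.41 ± 0.26, adjusted p = 0.0013) and Ifi27l2a had 934, 1395 and 866 (1.14 ± 0.30, adjusted p = 0.011), both below every emerin KO array. Ifih1, the cytosolic receptor for long double-stranded RNA, was lower, with 339, 337 and 243 in emerin KO, against 404, 625 and 633 in lamin A/C KO (-0.78 ± 0.23, adjusted p = 0.023). Isg20 had 157, 236 and 56.0 in emerin KO, against 214, 398 and 244 in lamin A/C KO (-0.90 ± 0.30, adjusted p = 0.041), and its groups overlapped. After the Gapdh ratio was added to the fit 0 of these 6 calls were left.

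Before injury few members differed. In emerin KO on day 0, 2 were higher than in control and 0 were lower, against 1.23% and 2.03% of all genes, with medians of 0.26 and 0.09. They were Ms4a4c, with 362 and 574 in emerin KO, against 120.4 and 162 in control (1.51 ± 0.30, adjusted p = 0.0048), and Trim34a, with 269 and 235, against 20.5 and 139 (1.58 ± 0.41, adjusted p = 0.033). In lamin A/C KO on day 0, Igtp alone was higher than in control, against 0.752% of all genes, with 556, 745 and 698 in lamin A/C KO and 289 and 402 in control (0.89 ± 0.21, adjusted p = 0.039), and 0 members were lower, against 0.143%. Between emerin KO and lamin A/C KO on day 0, 0 members were higher, against 2.11% of all genes, and Iigp1 alone was lower, against 4.18%. It had 919 and 522 in emerin KO, against 1522, 2417 and 1324 in lamin A/C KO (-1.25 ± 0.35, adjusted p = 0.034). None of these 4 calls passed whichever array was left out. Emerin KO against control had 1 call without emerin KO replicate 2 and 0 without control replicate 1. The call of Igtp was lost without lamin A/C KO replicate 2 or 3 or either control array, and that of Iigp1 without emerin KO replicate 2 or lamin A/C KO replicate 1 or 2.

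Within each genotype, injury moved many genes of all kinds, and the members' shares are given beside the background. From day 0 to day 3, 29 of 44 members rose and 0 fell in emerin KO (23.9% and 22.2% of all genes), 18 rose and 3 fell in lamin A/C KO (23.4% and 19.6%), and 15 rose and 1 fell in control (20.1% and 14.2%). From day 0 to day 4, 23 rose and 0 fell in emerin KO (23.5% and 20.8%), 29 rose and 1 fell in lamin A/C KO (21% and 18.2%), and 16 rose and 1 fell in control (19.5% and 14.3%). These comparisons share the arrays of day 0 within a genotype. In control the calls numbered 10 by day 3 without control day 0 replicate 1, in place of 16, and 11 by day 4 without control day 4 replicate 2, in place of 17.

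The antigen processing genes rose in every genotype. Of 5 measured, 4, 5 and 4 rose by day 3 in emerin KO, lamin A/C KO and control. Psmb8 had 1013, 895 and 936 on day 3 and 191 and 251 on day 0 in emerin KO (1.96 ± 0.20, adjusted p = 4.8e-08). In lamin A/C KO it had 589.6, 619 and 855 on day 3 and 235, 183 and 252 on day 0 (1.49 ± 0.18, adjusted p = 6.5e-07), and in control 552 and 635, against 160.0 and 199 (1.57 ± 0.22, adjusted p = 7.8e-06). No array of day 3 overlapped with day 0 in any genotype. Tapbp, Tap1 and Psmb9 rose in the same 3 comparisons, by 0.49 to 1.93.

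Counts of antiviral effectors that rose varied by genotype and day, and the counts were not tested against each other. By day 3, 5 of 8 had risen in emerin KO, 2 in lamin A/C KO and 1 in control, and by day 4 the counts were 4, 7 and 1. The shares of all genes that rose, given above, were 23.9%, 23.4% and 20.1% by day 3 and 23.5%, 21% and 19.5% by day 4, so 2 of 8 and 1 of 8 are near or below the background. Rsad2 had 2039, 2227 and 2447 on day 3 and 517 and 428 on day 0 in emerin KO (2.17 ± 0.37, adjusted p = 3.6e-05), while its control signals were 452 and 388 on day 3 and 393 and 462 on day 0. In lamin A/C KO it had 519, 1414 and 1719.5 on day 4 and 356, 579.5 and 549 on day 0 (1.11 ± 0.33, adjusted p = 0.0093), where the groups overlapped. Oas1a rose in all 3 genotypes by day 3, by 3.52 ± 0.36 in emerin KO, 2.50 ± 0.32 in lamin A/C KO and 1.48 ± 0.39 in control. Irf8, a factor of the myeloid lineage, also rose in all 3, by 2.61 ± 0.46, 2.52 ± 0.41 and 1.38 ± 0.50.

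Iigp1, a GTPase of the immunity-related family, went the other way. In lamin A/C KO it had 469, 444 and 430.0 on day 3, against 1522, 2417 and 1324 on day 0 (-1.85 ± 0.31, adjusted p = 4.7e-05), and in control 493 and 326, against 1898 and 999 (-1.70 ± 0.39, adjusted p = 0.0013). In emerin KO it had 856, 628 and 817 on day 3, against 919 and 522 on day 0 (0.13 ± 0.35), with overlapping groups. It fell by day 4 too in lamin A/C KO (-1.02 ± 0.31) and control (-1.86 ± 0.39). The other falls were Irgm1 (-0.58 ± 0.21) and Trim34a (-1.32 ± 0.33), both in lamin A/C KO by day 3.

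Between day 3 and day 4 emerin KO and control had 0 members past the threshold in either direction by limma, with 1 and 2 members at an unadjusted p under 0.05. Of all genes 0.958% were higher and 0.215% lower on day 4 in emerin KO, and 0.0448% higher and 0% lower in control. In lamin A/C KO, 4 members were higher on day 4 and 0 were lower, against 1.29% and 0.752% of all genes. They were Ifit2, with 237, 618 and 339 on day 4 and 75.0, 73.4 and 114 on day 3 (1.77 ± 0.37, adjusted p = 0.014), Ifit3 (1.25 ± 0.28), Oasl2 (1.21 ± 0.29) and Igtp (0.74 ± 0.19). Of these 4 calls 0 were left without lamin A/C KO day 4 replicate 2 and 0 without day 3 replicate 2, 2 were left without any 1 of day 3 replicates 1 and 3 and day 4 replicate 3, and the count was 7 without day 4 replicate 1.

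Whether the change since day 0 differed between genotypes was tested as an interaction. For emerin KO against control by day 3, 3 of 44 members had a larger rise and 0 a smaller one, against 1.42% and 1.22% of all genes. The median was 0.71 for the members and -0.12 for all genes, and the median of all genes was 0.05 with median scaling. The 3 were Rtp4 (3.08 ± 0.71, adjusted p = 0.023), Rsad2 (2.19 ± 0.54, adjusted p = 0.033) and Oas1a (2.03 ± 0.53, adjusted p = 0.043). Rtp4 had 298 and 20.2 on the emerin KO arrays of day 0, and without the second of these its difference was 1.75 (adjusted p = 0.11). The number of calls was 0 to 4 when 1 array was left out, and 0 without emerin KO day 0 replicate 2, emerin KO day 3 replicate 1, control day 0 replicate 2 or control day 3 replicate 2. By day 4, 0 members passed in either direction by limma, against 0.358% and 0.215% of all genes, and 9 members had an unadjusted p under 0.05. Iigp1 was nearest (2.11 ± 0.52, adjusted p = 0.069). For lamin A/C KO against control 0 members passed by day 3 (0.00896% and 0.161% of all genes higher and lower) and 0 by day 4 (0.0179% and 0.188%), with 1 and 8 members at an unadjusted p under 0.05.

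Upstream of these genes, Ifnb1, which encodes interferon beta, averaged 111 in emerin KO on day 3 and 67.5 in control and did not pass (0.49 ± 0.26, adjusted p = 0.24). Of 10 ligand and receptor genes listed, 9 were tested, and on day 3 0 were higher and 2 were lower in emerin KO than in control, against 7.38% and 8.92% of all genes. Both were receptor chains, Ifngr2 of the interferon gamma receptor (306 on average in emerin KO and 546 in control, -0.79 ± 0.20, adjusted p = 0.0078) and Ifnar1 of the type I receptor (544 and 782, -0.50 ± 0.17, adjusted p = 0.045). In the JAK-STAT relay 2 of 7 were higher and 2 were lower. Jak1, the kinase shared by both receptors, averaged 603 in emerin KO and 1361 in control (-1.17 ± 0.27, adjusted p = 0.0047), and the feedback inhibitor Socs3 averaged 427 and 736 (-0.72 ± 0.23, adjusted p = 0.032). Stat3 (0.73 ± 0.22) and Tyk2 (0.69 ± 0.20) were higher. Each gene was read by its brightest probe set. Jak1, Stat3 and Socs3 had 3 sets each, and the values of the others are not given here. The limits of mouse line and Gapdh ratio on day 3 apply to these calls too. With the ratio in the fit, 2 genes were higher and 7 lower over all genes on that day.

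Among nucleic acid sensors and adaptors 2 of 12 tested were higher and 0 lower in emerin KO than in control on day 3, against 7.38% and 8.92% of all genes. They were the dNTP-degrading restriction factor Samhd1, which averaged 2208 in emerin KO and 894 in control (1.21 ± 0.41, adjusted p = 0.048), and Irf5 (0.92 ± 0.19, adjusted p = 0.0020). Samhd1 was the only one of the 12 called on day 4 (1.44 ± 0.41, adjusted p = 0.043), against 2.58% of all genes higher on that day. Of 6 genes of MHC class I presentation only the immunoproteasome subunit Psmb10 was called on day 3, against 7.38% of all genes higher. It averaged 1366 in emerin KO and 746 in control (0.84 ± 0.25, adjusted p = 0.026), and 0 of the 6 were called on day 4. The medians of these 4 lists on day 3 were 0.08, 0.05, 0.09 and 0.29, in the order given here, against 0.90 for the interferon-induced genes. The limits of mouse line, Gapdh ratio and brightest probe set apply to these lists as well, and Samhd1 had 4 probe sets.

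Many members lie side by side in the genome, so they are not independent readings. Within 250 kb of each other lie Slfn8, Slfn2, Slfn1 and Slfn4, then Ifit1, Ifit2 and Ifit3, then Psmb9, Tap1 and Psmb8, and 6 further pairs. Neighbours did not always fall on the same side of the threshold: on day 3 Cxcl9 passed and its neighbour Cxcl10 did not, though both differences were positive. Psme1 (0.04) and Irf9 (0.65) lie together with neither called.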

How the data were processed

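RNA of gastrocnemius muscle was read on 23 single-channel Affymetrix arrays in 9 groups. The authors deposited MAS5 signal intensities per probe set, a linear scale with each array at a trimmed mean of 150, per the values themselves; the MAS5 version and settings are not given in the sources used here. Here every intensity was multiplied by 3.33, which sets the 2% trimmed mean of an array to 500. Of 22690 probe sets, 64 were controls, 691 were listed for several genes and 1555 for none, and the 20380 with 1 gene gave 12393 genes, each read by its brightest probe set. The 11164 genes that reached 100 on 2 or more arrays were tested on log2(signal + 32) with limma 3.58.1 in R 4.3.3, all groups in 1 fit with 14 residual degrees of freedom and an intensity trend. p-values were adjusted by Benjamini-Hochberg within each of 22 comparisons over all genes tested. The procedure was tested on simulated data. The number of arrays, 2 or 3 a group, limits the precision, and 0 pairs of arrays held identical values.

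The members, roles, marker lists and pathway lists were chosen with earlier results of these data known. Named were up to 4 members a role by size among those past the threshold, or, with 0 past it, up to 2 by the smallest p, and signals on every array were given for up to 4 a role by the smallest p. Further members are named to account for those that did not pass. Promoter sequences came from RefSeq (GRCm38.p6). Alternatives were another scaling, pseudocount, filter, probe set rule or variance model, the replicate number as a block, the Gapdh ratio as a covariate, only the compared groups, and leaving out each array. Replicate numbers were taken from the titles and did not pair the arrays. The genotype of control day 4 replicate 2 rests on its title alone.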

Additional observations from a re-analysis of the deposited data

Results flagged for a closer look

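For 3 interferon-induced genes the change from day 0 to day 3 differed between emerin KO and control muscle by the interaction test. The difference between the changes was 3.08 ± 0.71 (log2) for Rtp4, 2.19 ± 0.54 for Rsad2 and 2.03 ± 0.53 for Oas1a. Over 20 alternatives Rtp4 ranged over 1.75 to 4.41 and passed in 11, Rsad2 ranged over 1.21 to 2.37 and passed in 10, and Oas1a ranged over 1.75 to 2.30 and passed in 6. The emerin KO arrays of day 3 had Gapdh ratios of 3.62 to 6.09. With that ratio in the limma fit the interaction, emerin KO minus control for the change from day 0 to day 3, was 3.88 for Rtp4 (adjusted p = 0.16), 1.58 for Rsad2 (adjusted p = 0.47) and 1.75 for Oas1a (adjusted p = 0.43), each without passing.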

How the results depend on the processing

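Of 377 counts of called members under an alternative, 310 were within 1.5 times the reported count. For called and named members 3410 values kept direction and side of the threshold, 566 no longer passed, 14 newly passed and 20, all of genes that had not passed, changed sign. With the Gapdh ratio as a covariate the calls were 0 for emerin KO against control on day 3 (24 without it), 1 on day 4 (18) and 0 for the change by day 3 (3), 0, 2 and 0 for emerin KO against lamin A/C KO on day 0, day 3 and day 4 (1, 17 and 6), 16 for emerin KO between day 0 and day 3 (29), and 0 (4) in lamin A/C KO between day 3 and day 4. With the mean of all probe sets they were 0 for emerin KO against control on day 0 (2) and 0 for the change by day 3. Median scaling gave 0 calls of lamin A/C KO against control on day 0 (1). Without the intensity trend they were 0 for lamin A/C KO against control and 0 for emerin KO against lamin A/C KO on day 0, 11 for the pair of knockouts on day 3, 2 for lamin A/C KO from day 3 to day 4, and 0 for the change by day 3. With only the compared groups they were 0 in all 3 comparisons of day 0, 10 for emerin KO against lamin A/C KO on day 4, and 1 in lamin A/C KO between day 3 and day 4. A pseudocount of 1, or leaving out probe sets of the _x_at and _s_at kinds, gave 1 for emerin KO against control on day 0. A pseudocount of 100 gave 2 for emerin KO against lamin A/C KO on day 0, and quantile normalization gave 6 for the change by day 3. With the replicate number as a block the calls were 2 for emerin KO against lamin A/C KO on day 0 and 1 for the emerin KO change by day 4 (0 without it); same-numbered arrays had a median correlation of 0.024 in 82 pairs, against -0.019 in 152 others. With emerin KO day 4 replicate 2 alone, an alternative chosen after seeing the data, 0 passed on day 4 against control and 0 against lamin A/C KO. The cause of these changes was not tested.

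Leaving out 1 array gave 0 to 2 calls for emerin KO against control on day 0, 11 to 22 on day 3 and 0 to 19 on day 4. Emerin KO against lamin A/C KO gave 0 to 2, 8 to 14 and 3 to 9 on these days, while the comparison of lamin A/C KO with control gave 0 to 1 on day 0 and again on day 4. From day 0 the ranges were 22 to 28 by day 3 and 21 to 27 by day 4 in emerin KO, 15 to 19 and 24 to 31 in lamin A/C KO, and 10 to 15 and 11 to 15 in control. Lamin A/C KO from day 3 to day 4 gave 0 to 7, and the emerin KO changes gave 0 to 4 by day 3 and 0 to 2 by day 4.

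The sign changes were these. For emerin KO against control on day 3, adding that ratio gave -0.78 for Eif2ak2, 0.53 for Gbp2, 0.47 for Ifih1, -0.38 for Irf1 and 0.32 for Irgm1. The mean of all probe sets gave 0.36 for Gbp2 and -0.22 for Tapbp, quantile normalization -0.00216 for Isg20 and median scaling 0.032 for Socs1. Leaving out 1 array gave -0.15 to 0.40 for Ifi35, -0.38 to 0.22 for Irgm1, -0.091 to 0.16 for Isg20, -0.018 to 0.096 for Psme1 and -0.38 to 0.33 for Socs1, and -0.26 to 0.52 for Iigp1 in emerin KO from day 0 to day 3.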
